A study of Homo sapiens with 4 samples.

Results

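The proteasome subunits of HepG2, a human cell line from a hepatocellular carcinoma, were described in 4 mRNA libraries. Members were the genes whose symbol begins with PSMA, PSMB, PSMC, PSMD, PSME or PSMF and ends in a number. PSMB8 and PSMB9, which belong to the interferon-inducible form, were left out. The rule gave 42 of the 24462 genes in the tables. They comprised 17 subunits of the core particle, 9 of the base, 8 of the lid, 3 chaperones of base assembly, 4 activators and 1 inhibitor.

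The study asked how HepG2 cells respond to loss of CDK4 and CDK6 activity, and the libraries form 2 arms. In the drug arm, cells received PD0332991, a small-molecule inhibitor of the CDK4 and CDK6 kinases, or DMSO, the solvent control. In the siRNA arm, cells were transfected with siRNAs against both CDK4 and CDK6 (CDK4/6 KD) or with scrambled siRNA as the control. The cells are all of the same line, which the study describes in general as cultured in RPMI, and each condition is 1 library. The dose and exposure times of the sequenced cultures are not given in the sources used here. Without replicates, none of the differences below could be checked against the spread between cultures, and p-values are not given. HepG2 is a single cancer cell line and not normal liver.

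The proteasome is the large protease that degrades proteins tagged with ubiquitin. Its core particle is a barrel of alpha rings, which gate the entrance, around beta rings, which carry the proteolytic sites. A regulatory particle caps the barrel. Its base holds a ring of ATPases that unfold and feed the substrate, and its lid removes the ubiquitin chain. The subunits are assembled into a fixed stoichiometry, and their genes are known to be induced together by the transcription factor NRF1, encoded by NFE2L1, through antioxidant response elements.

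The check of the knockdown came first. CDK4 was at 301 CPM (read counts scaled to a common library size with TMM factors) in DMSO, 257 in PD0332991, 354 in scrambled siRNA and 71.9 in CDK4/6 KD. CDK6 was at 515, 479, 536 and 129 CPM in the same order. Both targets were thus lowest in the CDK4/6 KD library. All 10 hepatocyte markers listed were detected in each library, with a summed level of 17440 to 22299 CPM, and the leukocyte genes PTPRC and CD3E had at most 2 reads in any library. Of 10 keratinocyte markers, TP63 had at most 1 read in any library while KRT5 went from 2 reads in DMSO to 113 in PD0332991, and the summed list lay between 200.8 and 363 CPM. Of the 7 keratinocyte markers tested after PD0332991, 5 were at least 1.5-fold higher (71.4%, against 16.8% of all genes). SFN, the most counted of the list in DMSO, went the other way, from 1221 reads in DMSO to 563 in PD0332991, a fold change of 0.463. The part of the keratinocyte markers in the subunit differences was not tested. The summed level of 6 proliferation markers was 3874 CPM in DMSO, 487.6 in PD0332991, 2796 in scrambled siRNA and 1178 in CDK4/6 KD. It was lower in each inhibited library than in either control. The summed level of the subunits, in the same order, was 9105, 7816, 11369 and 9339 CPM. The subunits were thus not lower in CDK4/6 KD than in DMSO. The part of proliferation in the subunit differences was not tested. Library totals ran from 8983848 to 11176880 reads.

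Promoters of 4 subunits are shown, those of 3 genes at the low end of a comparison and 1 at the high end. PSMD3 had the lowest fold change in CDK4/6 KD, PSMA3 and PSMD11 the lowest after PD0332991, and PSMD9 the highest in CDK4/6 KD. Each sequence is the 250 bases before the annotated start on the plus strand of GRCh38.p14, from RefSeq, at chr17:39980557-39980806 for PSMD3, chr14:58244593-58244842 for PSMA3, chr17:32444260-32444509 for PSMD11 and chr12:121888540-121888789 for PSMD9. Capitals mark matches on either strand to any of 6 motifs searched, which were TGACNNNGC (the antioxidant response element core), CCAAT (the NF-Y box), CACGTG (the E-box), TTTCCCGC and TTTGGCGC (E2F) and GGGCGG (the GC box).
PSMD3: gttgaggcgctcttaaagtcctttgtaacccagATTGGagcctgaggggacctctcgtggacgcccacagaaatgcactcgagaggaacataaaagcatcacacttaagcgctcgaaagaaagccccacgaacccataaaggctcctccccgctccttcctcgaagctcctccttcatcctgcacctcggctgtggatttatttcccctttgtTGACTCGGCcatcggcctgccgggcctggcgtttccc
PSMA3: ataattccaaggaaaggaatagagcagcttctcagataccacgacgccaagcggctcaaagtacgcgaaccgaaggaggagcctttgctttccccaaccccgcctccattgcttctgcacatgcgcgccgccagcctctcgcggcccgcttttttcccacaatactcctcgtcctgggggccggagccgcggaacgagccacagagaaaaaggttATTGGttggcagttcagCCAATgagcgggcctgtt
PSMD11: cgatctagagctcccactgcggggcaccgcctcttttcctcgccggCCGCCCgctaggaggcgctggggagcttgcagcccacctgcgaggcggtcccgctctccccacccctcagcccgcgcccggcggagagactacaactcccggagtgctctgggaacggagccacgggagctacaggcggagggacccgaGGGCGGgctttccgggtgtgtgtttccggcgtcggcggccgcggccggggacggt
PSMD9: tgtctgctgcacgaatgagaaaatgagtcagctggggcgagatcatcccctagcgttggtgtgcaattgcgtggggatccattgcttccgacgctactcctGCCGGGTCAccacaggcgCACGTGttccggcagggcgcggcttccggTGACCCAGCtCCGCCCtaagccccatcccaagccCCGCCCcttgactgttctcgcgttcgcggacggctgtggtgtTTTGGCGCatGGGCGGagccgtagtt
PSMD3 held an antioxidant response element core 37 bases before the start and a CCAAT box at 217 bases. PSMA3 held CCAAT boxes at 35 and 18 bases, and PSMD11 held only GC boxes. The PSMD9 window held 7 matches, among them antioxidant response element cores at 149 and 102 bases and an E2F match at 26 bases. PSMF1, the highest after PD0332991, had no match to the 6 motifs in its windows and is not printed.

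Across the 37 members with a RefSeq promoter, the antioxidant response element core was found in 10 (27%), against 16.2% of the genes tested in CDK4/6 KD and 13.2% of all 27305 genes of the promoter table. CCAAT was found in 17 members (45.9%, against 41.4% of tested genes) and the GC box in 22 (59.5%, against 73.1%). The E-box was found in 3 (8.11%, against 11%), TTTCCCGC in 2 (5.41%, against 2.73%) and TTTGGCGC in 1 (2.7%, against 1.09%). The short motifs occur often by their letters alone, and a match is not a bound site. Of the 10 members with the antioxidant response element core, 5 had a fold change below 1 in CDK4/6 KD, with log2 values from -0.86 to 0.42 and a median of -0.22, while of the 25 tested members without it 21 were below 1, with a median of -0.26. After PD0332991, 8 of 10 with the motif and 23 of 25 without it were below 1, and the medians were -0.36 and -0.33.

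All libraries expressed 40 of the 42 members. PSMA8, the testis form of an alpha subunit, and PSMB11, the thymus form of a catalytic beta subunit, had 0 reads in all 4 libraries, which allows up to 0.329 CPM in the shallowest. In 3′ end sequencing a transcript gives reads near its poly(A) tail whatever its length, so levels of different genes can be set side by side, although the share of transcripts captured still differs by gene. The levels of subunits that share a ring were far from equal. In the alpha ring, PSMA7 was highest at 881 CPM in DMSO, 815 in PD0332991, 1184 in scrambled siRNA and 1040.4 in CDK4/6 KD. PSMA5 was lowest at 54.5, 43.5, 45.3 and 48 CPM. PSMB1 led the beta subunits with 695 to 1024 CPM and PSMC4 the ATPases with 333 to 653 CPM, while PSMC1, another ATPase, had 44.3 to 81.8 CPM. The chaperones PSMD5, at 15.5 to 22.7 CPM, and PSMD10, at 18.4 to 23.7 CPM, were the lowest expressed of the detected members. This order was wide compared with any difference between libraries.

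**Figure D1:**
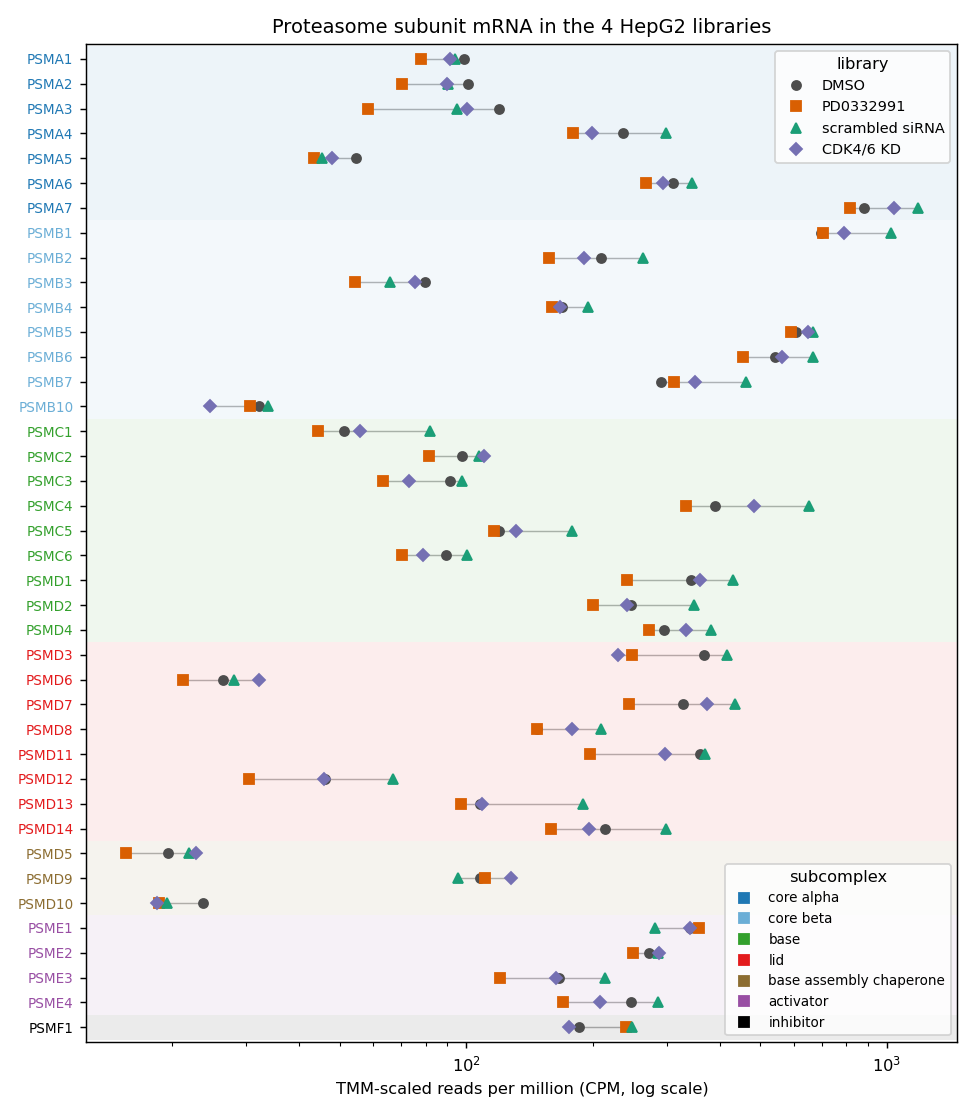
Level of each of the 40 detected subunits in the 4 libraries, in TMM-scaled CPM on a log axis, 1 point per library, with shaded bands for the subcomplexes. Differences among genes, from 15.5 CPM for PSMD5 to 1184 CPM for PSMA7, exceed those among libraries, and PD0332991 is the lowest point for 31 of the 40 (77.5%, against 26.4% of all genes).

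Summed over the members, the level was 9105 CPM in DMSO, 7816 in PD0332991, 11369 in scrambled siRNA and 9339 in CDK4/6 KD. The subunits thus took 0.912%, 0.792%, 1.09% and 0.961% of the reads, with exact 95% binomial intervals of 0.906 to 0.918%, 0.786 to 0.798%, 1.08 to 1.09% and 0.955 to 0.967%. The intervals here and below cover counting error only, since no molecular identifiers are named and PCR copies are counted as reads. Scrambled siRNA was the highest library for 28 of the 40 members (70.0%, against 25.9% of the 13099 genes tested in both arms) and PD0332991 the lowest for 31 (77.5%, against 26.4%). CDK4/6 KD was the lowest for 4 (10.0%, against 24.2%). In bulk libraries, less RNA per cell and fewer cells that express a gene cannot be told apart.

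In CDK4/6 KD the subunits were mostly a little lower than in scrambled siRNA, with lower medians in the base and the lid than in the alpha ring against this control. Against DMSO that order turned, with medians of -0.17 for the alpha subunits, 0.13 for the base and 0.00 for the lid. The fold change was below 1 for 31 of the 40 (77.5%), against 50.3% of the 13617 genes tested. The exact 95% interval (Clopper-Pearson, from how a gene's reads split between the libraries) lay wholly below 1 for 27 (67.5%, against 31.9% of all genes) and wholly above 1 for 3 (7.5%, against 30%). The median log2 fold change was -0.25, a fold change of 0.841, against 0.00 over all genes, and members ranged from -0.86 to 0.42. Large differences were rare. At least 20% lower (a fold change of 0.8 or less) were 19 members (47.5%, against 29.5%), and 1 was at least 25% higher (2.5%, against 30.4%). At least 1.5-fold lower were only PSMD3, PSMD13 and PSMD14 (7.5%, against 17.4% of all genes), and none was 1.5-fold higher (against 19.4%). None reached 2-fold, either lower (against 7.62%) or higher (against 9.19%). The members were therefore shifted downward as a body against this control, with fewer large differences than genes at large.

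After PD0332991 the picture against DMSO was alike in size. The fold change was below 1 for 34 of 40 members (85%, against 48.4% of the 13443 genes tested), and the interval lay below 1 for 30 (75%, against 28.6%) and above 1 for 2 (5%, against 28.1%). The median log2 fold change was -0.31, a fold change of 0.807, against 0.02 over all genes, and the range was -1.04 to 0.37. At least 20% lower were 19 members (47.5%, against 27%) and 1 was at least 25% higher (2.5%, against 28.8%). At least 1.5-fold lower were PSMA3, PSMD11 and PSMD12 (7.5%, against 15.1%), and none was 1.5-fold higher (against 16.8%). PSMA3 alone was more than 2-fold lower (2.5%, against 7.06%), and none was 2-fold higher (against 7.49%).

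The control libraries themselves differed at these genes. Scrambled siRNA was above DMSO for 32 of the 40 members and below it for 8 (20.0%, against 49.3% of the 13303 genes tested), with a median log2 fold change of 0.21 (a fold change of 1.16). At least 25% higher were 18 (45%, against 26.2%) and at least 20% lower was 1 (2.5%, against 27.3%). At least 1.5-fold higher were PSMB7, PSMC1, PSMC4 and PSMD13 (10.0%, against 13.4%), and none was 1.5-fold lower (against 15.7%). None reached 2-fold in either direction (against 6.64% lower and 5.3% higher). Because both arms are read against these controls, each was also read against the other one. Against DMSO, CDK4/6 KD had a median of -0.01, with 22 members below 1 (55%, against 49.8%) and 18 above, and 1 member, PSMD3, was at least 1.5-fold lower (2.5%, against 17.4%). PD0332991 against scrambled siRNA had a median of -0.54, with 38 of 40 members below 1 (95%, against 50.5%) and 17 at least 1.5-fold lower (42.5%, against 18.3%). The downward shift of the subunits in CDK4/6 KD was thus present against scrambled siRNA and not against DMSO, while that after PD0332991 was present against both. What set the scrambled siRNA library apart was not tested.

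**Figure D2:**
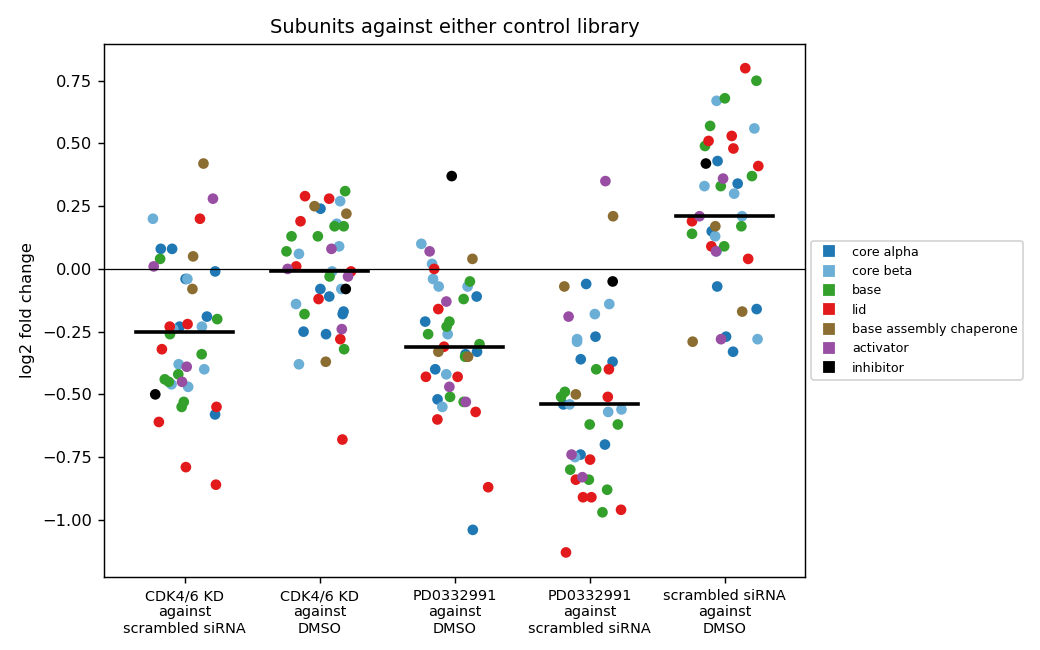
Log2 fold change of the 40 detected subunits (points, spread sideways for visibility and coloured by subcomplex) in 5 pairings of the 4 libraries, with a bar at the median. The median is -0.25 for CDK4/6 KD against scrambled siRNA and -0.01 against DMSO, and it is -0.31 for PD0332991 against DMSO and -0.54 against scrambled siRNA.

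Among lid, base, core and activators, the lid, which removes ubiquitin chains, had the lowest summed level relative to control in both arms. Its 8 subunits summed to 1595 CPM in DMSO, 1142 in PD0332991, 2015 in scrambled siRNA and 1460.1 in CDK4/6 KD. The summed fold change was 0.725 (95% interval 0.71 to 0.74) in CDK4/6 KD and 0.716 (0.698 to 0.734) after PD0332991. The base followed with 0.784 (0.77 to 0.799) and 0.824 (0.805 to 0.843), then the core with 0.845 (0.835 to 0.855) and 0.898 (0.885 to 0.911), and the activators with 0.939 (0.915 to 0.964) and 0.874 (0.849 to 0.901). The intervals of lid, base, core and activators did not overlap in CDK4/6 KD against scrambled siRNA, so this order exceeded counting error there. After PD0332991 the activator interval overlapped that of the core. The order in CDK4/6 KD depended on the control. Against DMSO its summed fold changes were 0.915 for the lid, 0.975 for the activators, 1.06 for the core and 1.08 for the base. A sum is carried by its most counted members. Against the control of the same arm, the median over subunits gave a flatter order. Median log2 fold changes in CDK4/6 KD were -0.43 for the lid, -0.42 for the base, -0.23 for the core and -0.19 for the activators. After PD0332991 they were -0.43, -0.26, -0.26 and -0.30.

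**Figure D3:**
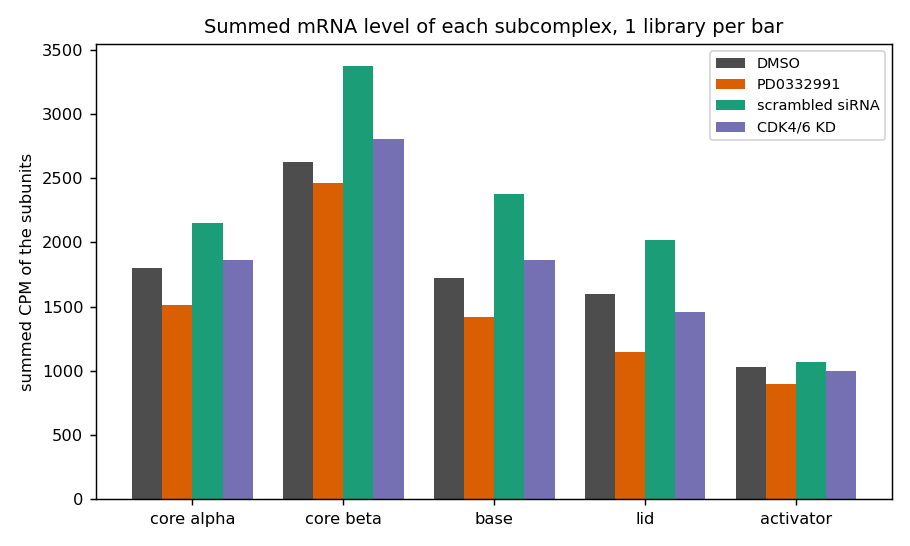
Summed level of the subunits of the alpha and beta parts of the core, the base, the lid and the activators in CPM, 1 bar per library, on an axis from 0. Scrambled siRNA is the highest bar in each set, and the lid bar falls from 1595 CPM in DMSO to 1142 in PD0332991 and from 2015 in scrambled siRNA to 1460.1 in CDK4/6 KD.

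PSMD3, a structural subunit of the lid, had 3349 reads in DMSO (367 CPM), 2251 in PD0332991 (247 CPM), 4467 in scrambled siRNA (417 CPM) and 2597 in CDK4/6 KD (229 CPM). Both inhibited libraries were below both controls. Its fold change was 0.55 (0.523 to 0.577) in CDK4/6 KD and 0.675 (0.639 to 0.712) after PD0332991. It was also the only member at least 1.5-fold lower in CDK4/6 KD whichever control was used.

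PSMD13, another structural lid subunit, had 108 CPM in DMSO, 96.9 in PD0332991, 189 in scrambled siRNA and 109 in CDK4/6 KD. Only the scrambled library stood apart. The fold change of 0.577 (0.537 to 0.619) in CDK4/6 KD therefore rested on the control, and after PD0332991 the value was 0.894 (0.816 to 0.98). PSMD14, the deubiquitinase that cuts the chain from the substrate, had 214, 159, 299 and 196 CPM in DMSO, PD0332991, scrambled siRNA and CDK4/6 KD. Its fold change was 0.656 (0.621 to 0.692) in CDK4/6 KD and 0.743 (0.694 to 0.796) after PD0332991, and both inhibited libraries were below both controls.

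PSMD11, a lid subunit that holds lid, base and core together, had 359.5 CPM in DMSO, 197 in PD0332991, 370.1 in scrambled siRNA and 296 in CDK4/6 KD. The controls were close to each other here. Its fold change was 0.548 (0.517 to 0.581) after PD0332991 and 0.8 (0.764 to 0.838) in CDK4/6 KD. PSMD12, also structural, was lower in both arms at 46.2, 30.4, 66.8 and 45.8 CPM, with a fold change of 0.685 (0.61 to 0.768) in CDK4/6 KD and of 0.659 (0.564 to 0.768) after PD0332991. CDK4/6 KD and DMSO were level for this gene.

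None of the other lid subunits passed 1.5-fold. PSMD7, the inactive partner of PSMD14, had a fold change of 0.858 in CDK4/6 KD and of 0.742 after PD0332991. PSMD8 was at 0.853 and 1, and its levels were 147 CPM in both libraries of the drug arm. PSMD6 was the exception in CDK4/6 KD with a fold change of 1.15, whose interval of 0.985 to 1.34 held 1, on 241 reads in DMSO, 193 in PD0332991, 300 in scrambled siRNA and 365 in CDK4/6 KD. An antisense gene, PSMD6-AS2, lies over its last 500 bases and had at most 10 reads in any library.

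**Figure D4:**
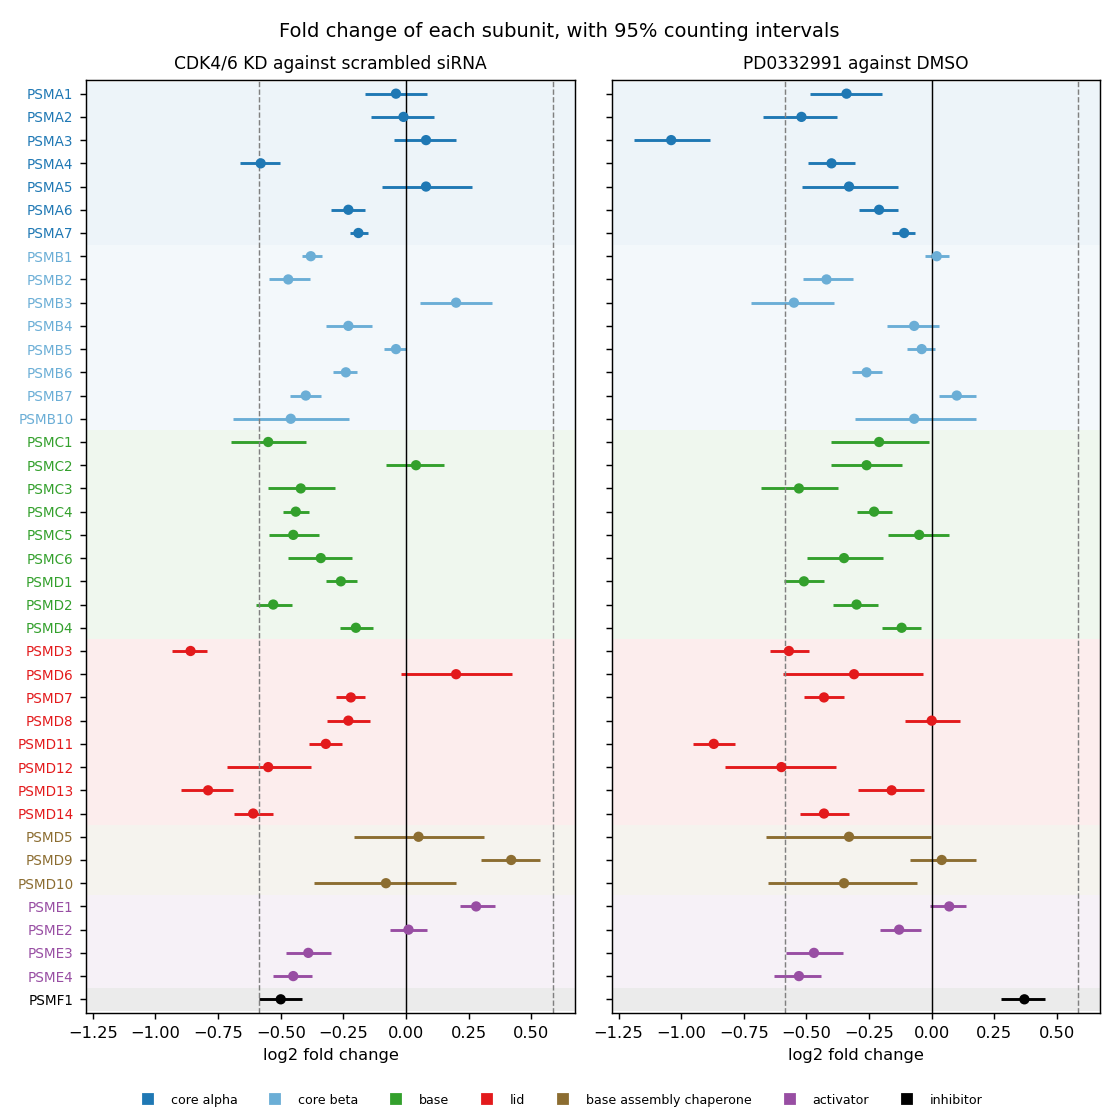
Log2 fold change of each detected subunit in CDK4/6 KD against scrambled siRNA (left) and in PD0332991 against DMSO (right), with 95% counting intervals as bars, dashed lines at 1.5-fold and colours for the subcomplexes. Points left of the left dashed line are PSMD3, PSMD13 and PSMD14 in CDK4/6 KD and PSMA3, PSMD11 and PSMD12 after PD0332991.

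In the base, all 6 ATPases had a fold change below 1 after PD0332991 (100%, against 48.4% of all genes). In CDK4/6 KD against scrambled siRNA, 5 of 6 did (83.3%, against 50.3%). PSMC2 was the one ATPase not lower in CDK4/6 KD, at 1.03 (0.945 to 1.11). The other 5 were between 0.684 for PSMC1 and 0.788 for PSMC6, a narrow band against this control. With DMSO as the control, 2 of the 6 were below 1 in CDK4/6 KD (33.3%, against 49.8% of all genes). Their log2 fold changes then ran from -0.32 to 0.31. After PD0332991 the ATPases ran from 0.694 for PSMC3 to 0.966 for PSMC5. PSMC1 and PSMC4 were among the genes with the largest excess of scrambled siRNA over DMSO, at 1.6 (1.43 to 1.79) and 1.68 (1.61 to 1.75). For PSMC1, 13 pseudogenes carry its name in GENCODE 29 and the opposite-strand gene NRDE2, with 188 to 280 reads, overlaps its end, so its count is less certain. Of the non-ATPase subunits, the scaffold PSMD2 had a fold change of 0.693 in CDK4/6 KD and of 0.81 after PD0332991, and PSMD1 had 0.837 and 0.702. The ubiquitin receptor PSMD4 was closest to its controls, at 0.872 and 0.92.

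Against the control of its own arm, each inhibited library had one part of the core lower than the other. The 7 detected alpha subunits had a median log2 fold change of -0.04 in CDK4/6 KD and -0.34 after PD0332991, and the 8 detected beta subunits had -0.31 and -0.07. After PD0332991 the interval lay below 1 for all 7 alpha subunits and for 3 of the 8 beta subunits. The share over all genes was 28.6%, near the 37.5% of the beta subunits. In CDK4/6 KD it did so for 3 of 7 (42.9%) and for 6 of 8 (75%), against 31.9% of all genes. With the control of the other arm the pattern was not kept, as CDK4/6 KD against DMSO had medians of -0.17 for alpha and 0.02 for beta, and PD0332991 against scrambled siRNA had -0.37 and -0.41. The difference between the parts was not tested, as subunits are not replicates of a condition.

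PSMA3, an alpha subunit, had 1095 reads in DMSO (119.8 CPM), 532 in PD0332991 (58.4 CPM), 1017 in scrambled siRNA (95 CPM) and 1134 in CDK4/6 KD (100.2 CPM). The PD0332991 library alone was low. Its fold change after PD0332991 was 0.488 (0.439 to 0.541), the lowest of all members, and in CDK4/6 KD it was 1.05 (0.968 to 1.15). The antisense gene PSMA3-AS1 overlaps the last 500 bases of PSMA3 and had 289 reads in DMSO, 391 in PD0332991, 256 in scrambled siRNA and 456 in CDK4/6 KD. Whether strand was used in counting is not given in the sources used here, and without it reads of the pair cannot be told apart. PSMA4 lay just outside 1.5-fold in CDK4/6 KD at 0.668 (0.632 to 0.705) and had 0.758 after PD0332991. PSMA2 was level with its control in CDK4/6 KD at 0.992 and lower after PD0332991 at 0.695 (0.627 to 0.77). PSMA1 and PSMA5 were likewise within counting error of control in CDK4/6 KD, at 0.974 and 1.06, and stood at 0.79 and 0.798 after PD0332991. PSMA6 had 0.853 and 0.864 and PSMA7 had 0.879 and 0.924, with all 4 intervals below 1.

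The 3 catalytic subunits did not move alike. PSMB5, which carries the chymotrypsin-like site, had 608 CPM in DMSO, 590.1 in PD0332991, 667 in scrambled siRNA and 649 in CDK4/6 KD. Its fold changes were 0.972 (0.941 to 1) in CDK4/6 KD and 0.971 (0.935 to 1.01) after PD0332991, so a difference from control beyond counting error was not detectable. PSMB6, with the caspase-like site, had 542, 454, 668 and 564 CPM, and fold changes of 0.845 (0.817 to 0.874) and 0.836 (0.802 to 0.872). Against the control of the same arm it was lower by nearly the same amount in both. Against DMSO, PSMB6 in CDK4/6 KD was at 1.04 (1 to 1.08). PSMB7, with the trypsin-like site, had 290.3 CPM in DMSO, 311 in PD0332991, 461 in scrambled siRNA and 349 in CDK4/6 KD. Its fold change was 0.757 (0.726 to 0.79) in CDK4/6 KD and 1.07 (1.02 to 1.13) after PD0332991, and CDK4/6 KD remained above DMSO.

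PSMB10 takes the place of PSMB7 in the interferon-inducible proteasome. It had 293 reads in DMSO, 279 in PD0332991, 361 in scrambled siRNA and 278 in CDK4/6 KD, or 32.1, 30.6, 33.7 and 24.6 CPM. CDK4/6 KD was the lowest of the 4. The fold change was 0.728 (0.62 to 0.854) in CDK4/6 KD and 0.956 (0.808 to 1.13) after PD0332991, and 5 interferon response genes summed to between 153.6 and 168.5 CPM in all libraries. Among the structural beta subunits, PSMB1 and PSMB2 were at 0.771 and 0.724 in CDK4/6 KD and at 1.02 and 0.75 after PD0332991, and PSMB4 was at 0.854 and 0.949. PSMB3 went the other way in the siRNA arm, at 1.15 (1.04 to 1.27), and had 0.681 (0.606 to 0.764) after PD0332991, on 79.9 CPM in DMSO, 54.4 in PD0332991, 65.8 in scrambled siRNA and 75.4 in CDK4/6 KD. PSMB3 was thus lowest in PD0332991 and highest in DMSO.

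PSMD9, a chaperone that binds ATPases during base assembly and leaves the finished particle, had 985 reads in DMSO (108 CPM), 1011 in PD0332991 (111 CPM), 1024 in scrambled siRNA (95.7 CPM) and 1450 in CDK4/6 KD (128 CPM). CDK4/6 KD was the highest library. The fold change of 1.34 (1.23 to 1.45) in CDK4/6 KD made it the only member at least 25% higher there, and after PD0332991 it was 1.03 (0.943 to 1.13). The same-strand gene WDR66 lies over its last 500 bases and had at most 18 reads. The other base chaperones, PSMD5 and PSMD10, had intervals that held 1 in CDK4/6 KD, at 1.04 (0.866 to 1.24) and 0.945 (0.776 to 1.15), and 0.795 and 0.782 after PD0332991.

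The activators open the gate of the core without ATP. PSME1 and PSME2 form the interferon-inducible cap linked to antigen processing. PSME1 had 341 CPM in DMSO, 357 in PD0332991, 280.5 in scrambled siRNA and 341 in CDK4/6 KD. It was the reverse of most members in having scrambled siRNA lowest. Its fold change was 1.22 (1.16 to 1.28) in CDK4/6 KD and 1.05 (0.996 to 1.1) after PD0332991. The opposite-strand gene EMC9 overlaps its end and had 538 reads in DMSO, 488 in PD0332991, 346 in scrambled siRNA and 759 in CDK4/6 KD, against 3118, 3253, 3001 and 3862 for PSME1. PSME2 was nearly level, at 272, 249, 285 and 287 CPM, with fold changes of 1.01 (0.958 to 1.06) and 0.917 (0.866 to 0.971).

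PSME3 and PSME4, the nuclear activators, were lower than the control of the same arm in both arms. PSME3 had 166 CPM in DMSO, 120.0 in PD0332991, 213 in scrambled siRNA and 163 in CDK4/6 KD, with a fold change of 0.763 (0.717 to 0.812) in CDK4/6 KD and of 0.724 (0.669 to 0.783) after PD0332991. PSME4 had 246, 170.1, 285 and 208 CPM and fold changes of 0.731 (0.693 to 0.772) and 0.69 (0.647 to 0.737). In both comparisons each gene of the nuclear pair thus had a lower fold change than either gene of the interferon-inducible pair.

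PSMF1, described as an inhibitor of the core in the test tube and as an adaptor in cells, had 185 CPM in DMSO, 239 in PD0332991, 248 in scrambled siRNA and 175 in CDK4/6 KD. PD0332991 and scrambled siRNA were the high libraries. The fold change was 0.707 (0.666 to 0.749) in CDK4/6 KD and 1.29 (1.21 to 1.37) after PD0332991, and PSMF1 was the only member at least 25% higher after the drug.

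CDK4/6 KD against scrambled siRNA and PD0332991 against DMSO share no library, so the members can be set against each other. A fold change below 1 in both was found for 27 of 40 members, against 29.4% of the 13099 genes tested in both, and an interval below 1 in both for 20, against 14.2%. At least 20% lower in both were 10, against 11.4% of all genes. Beyond that common direction the members were not ordered alike. Spearman's rho between the log2 fold changes was 0.11 across the 40 members and 0.27 across all genes, given as a description since genes are not independent replicates. Only PSMD9 and PSME1 were above 1 in both, 4 members were below 1 in CDK4/6 KD and at or above 1 after PD0332991, and 7 the reverse. The largest disagreements were PSMA3, PSMB3 and PSMF1. Mean level and log2 fold change had a rho of -0.15 in CDK4/6 KD and 0.28 after PD0332991, so neither comparison was ordered by abundance.

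**Figure D5:**
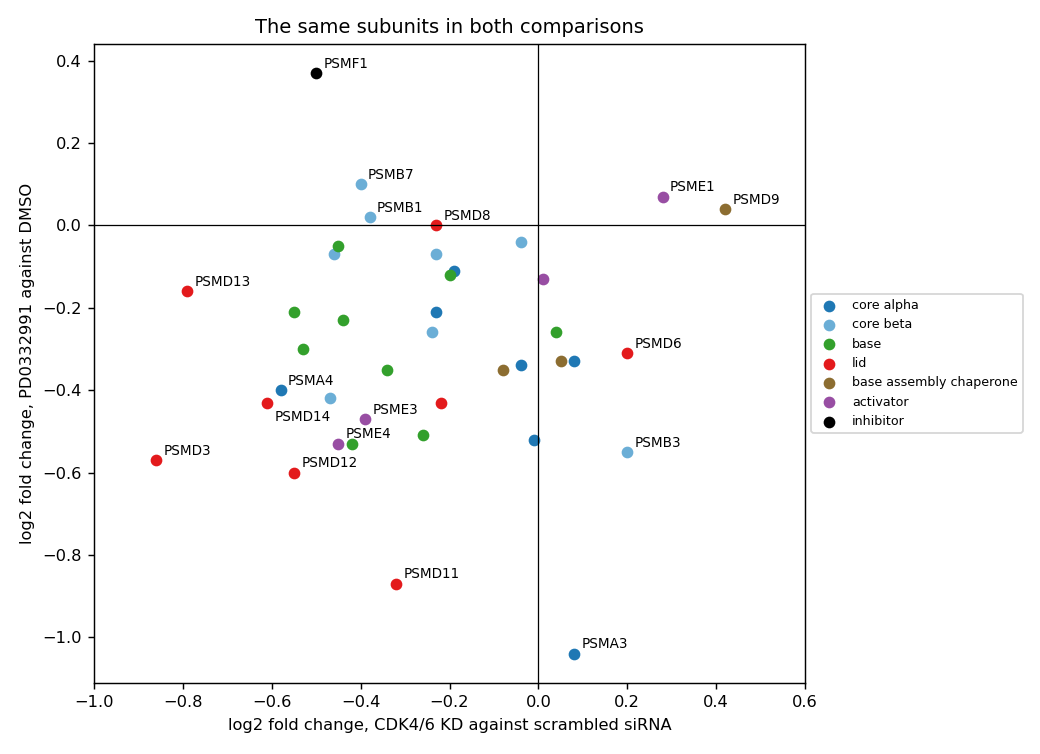
Log2 fold change of each detected subunit in CDK4/6 KD against scrambled siRNA (horizontal) and in PD0332991 against DMSO (vertical), coloured by subcomplex. Most points lie in the lower left (27 of 40), PSMD9 and PSME1 lie in the upper right, and PSMF1 and PSMA3 lie farthest off the diagonal.

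Of 35 other genes of the pathway, all were tested. Their median log2 fold changes, -0.10 in CDK4/6 KD and -0.17 after PD0332991, were nearer to 0 than those of the subunits. In CDK4/6 KD, 5 of 35 were at least 1.5-fold lower (14.3%, against 17.4% of all genes) and 1 was higher (2.86%, against 19.4%). After PD0332991, 4 were lower (11.4%, against 15.1%) and none was higher.

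Subunits that the symbol rule does not reach followed the base and lid in part. ADRM1, a ubiquitin receptor of the base, had a fold change of 0.675 (0.643 to 0.708) in CDK4/6 KD and of 0.762 (0.716 to 0.81) after PD0332991, while SEM1, the small lid subunit, had 1.05 and 0.896. UCHL5, the deubiquitinase that ADRM1 recruits, was at least 1.5-fold lower in CDK4/6 KD at 0.637 (0.574 to 0.705) and after PD0332991 at 0.503 (0.438 to 0.576). It had 68.8 CPM in DMSO, 34.6 in PD0332991, 87.3 in scrambled siRNA and 55.6 in CDK4/6 KD. USP14, the other proteasome-bound deubiquitinase of the list, had 1.19 and 0.892.

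Of the chaperones of core assembly, POMP, which is consumed as the beta rings mature, had 245, 249.9, 356 and 264 CPM in DMSO, PD0332991, scrambled siRNA and CDK4/6 KD, with a fold change of 0.743 (0.708 to 0.78) in CDK4/6 KD and of 1.02 (0.963 to 1.08) after PD0332991. PSMG1, which guides alpha ring assembly, had 61.3, 28.6, 58 and 49 CPM in the same order and was at 0.845 (0.752 to 0.949) and 0.466 (0.401 to 0.541). PSMG3, of a further assembly chaperone pair, had 131, 122, 183 and 108 CPM and was at 0.59 (0.549 to 0.634) and 0.933 (0.859 to 1.01). The other assembly chaperones of the list were above control in 1 arm each. PSMG2 was at 1.22 (1.05 to 1.42) in CDK4/6 KD and 0.881 (0.762 to 1.02) after PD0332991, and PSMG4 was at 0.904 (0.799 to 1.02) and 1.26 (1.1 to 1.44).

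NFE2L1, which encodes NRF1, did not differ beyond counting error from the control of the same arm. It was at 1 (0.902 to 1.11) in CDK4/6 KD and 1.05 (0.941 to 1.16) after PD0332991, on 76, 79.4, 65.6 and 65.7 CPM. With the control of the other arm it was at 0.865 (0.779 to 0.961) in CDK4/6 KD and 1.21 (1.09 to 1.34) after PD0332991. These are mRNA levels, and NRF1 is known to be controlled largely at the protein. Its relative NFE2L3 had 25 CPM in DMSO, 12.1 in PD0332991, 13.8 in scrambled siRNA and 20.8 in CDK4/6 KD, with a fold change of 1.51 (1.22 to 1.86) in CDK4/6 KD and of 0.485 (0.382 to 0.61) after PD0332991. DDI2, the protease that activates NRF1, had 10 reads in DMSO, 2 in PD0332991, 10 in scrambled siRNA and 15 in CDK4/6 KD. The ratio of PD0332991 to DMSO had a counting interval of 0.0214 to 0.942.

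Of the factors that bring substrates, RAD23B, a shuttle protein, had 208 CPM in DMSO, 145 in PD0332991, 181 in scrambled siRNA and 83 in CDK4/6 KD. Both inhibited libraries were below both controls, with fold changes of 0.458 (0.423 to 0.495) in CDK4/6 KD and 0.696 (0.648 to 0.747) after PD0332991. UBQLN2, another shuttle, had 12.3, 13.7, 9.35 and 5.48 CPM and was at 0.588 (0.42 to 0.813) in CDK4/6 KD. MIDN, which carries substrates without ubiquitin, had 285, 205, 283 and 167 CPM and was at 0.593 (0.559 to 0.628). MIDN was at 0.721 after PD0332991 and UBQLN2 at 1.12. The ubiquitin gene UBB had a fold change of 1.31 (1.26 to 1.36) after PD0332991 and of 1.29 in CDK4/6 KD, with both intervals above 1. RPS27A, which encodes ubiquitin fused to a ribosomal protein, had 1.35 (1.33 to 1.36) after PD0332991 and 0.783 (0.775 to 0.79) in CDK4/6 KD. Both were thus above control after PD0332991, where most subunits were below it.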

How the data were processed

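Gene expression of HepG2 cells was measured in 4 QuantSeq 3′ libraries, 1 per condition. Deposited values are raw read counts for each gene symbol in 1 file per library, not normalized by the authors. The submitters' processing notes name Bowtie2, edgeR and hg19 without their roles. The counter, the annotation and the use of strand are not given in the sources used here. Each file lists 25737 entries, 286 symbols of which were repeated and were summed, leaving 24462 genes. All sample columns were used.

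Totals were scaled by TMM factors from edgeR 4.0.16 in R 4.3.3 (0.957 to 1.03). A pseudocount of 0.5 reads was added before taking ratios, and a gene needed 10 reads or more in 1 of the libraries compared. The 95% Clopper-Pearson intervals came from the split of reads (scipy 1.17.1). The quasi-likelihood test of edgeR needs replicates and could not be run, so genes were counted past 1.5-fold, with a fold of 0.8 (or 25% higher) and 2-fold beside it, and set against all genes tested. Alternatives were DESeq2 1.42.0 size factors, total counts alone, quantile normalization (limma 3.58.1), a pseudocount of 5 reads, no filter or one of 50 reads, keeping for a repeated symbol its entry with most reads, other thresholds and the control of the other arm. The procedure was tested on simulated data. A ratio that rests on 3 reads or fewer is given by its interval.

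The members and gene lists were chosen with earlier results of these data known. Values in all libraries are given for members past 1.5-fold, the 3 highest and 3 lowest per comparison with at least 100 reads in 1 library, the catalytic subunits, PSMB10, the activators and the inhibitor, and, outside the members, for CDK4, CDK6, NFE2L1, POMP and pathway genes past 1.5-fold. Other genes named were chosen after their values were seen. SEM1 was found under SHFM1, UFD1 under UFD1L and ECPAS under KIAA0368. Marker lists covered hepatocytes, keratinocytes, leukocytes, proliferation and interferon response. Overlaps and pseudogenes were read from GENCODE 29, in which 12 members have 32 pseudogenes named after them and 5 have a counted gene of the opposite strand over their last 500 bases. Promoters of 37 members came from RefSeq on GRCh38.p14, and a gene with several starts counted as holding a motif if any of its windows did. PSMA7, PSMB1, PSMB6, PSMB7 and PSMD4 were not among them. Some genes of the pathway list are not reported here by name.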

Additional observations from a re-analysis of the deposited data

Results flagged for a closer look

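PSMF1 differed between the arms, with a log2 fold change of -0.50 in CDK4/6 KD against scrambled siRNA and 0.37 in PD0332991 against DMSO. NFE2L3 had 0.59 in CDK4/6 KD and -1.04 after PD0332991. RPS27A, which encodes ubiquitin fused to a ribosomal protein, had -0.35 and 0.43. These genes of the lists had at least 100 reads in 1 library and moved in opposite directions, by at least 20% where lower and 25% where higher. For each the counting intervals of these comparisons lay on different sides of 1. The opposite directions depended on the control for PSMF1 and NFE2L3. With the control of the other arm, PSMF1 had -0.08 in CDK4/6 KD and -0.05 after PD0332991, and NFE2L3 had -0.26 and -0.19. The counting intervals of these 4 values held a fold change of 1. RPS27A had -0.10 and 0.17 and kept its opposite directions. With 1 library per condition the difference between the arms was not tested.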

How the results depend on the processing

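With the control library of the other arm the median log2 fold change of the members was -0.01 in CDK4/6 KD and -0.54 after PD0332991, and by subcomplex -0.08 and -0.37 for the core, 0.13 and -0.62 for the base, 0.00 and -0.87 for the lid, and -0.01 and -0.47 for the activators. Members at least 1.5-fold lower numbered 1 in CDK4/6 KD and 17 after PD0332991, and pathway genes 2 higher in CDK4/6 KD and 8 lower after PD0332991. With that control 16 of 40 members changed sign in CDK4/6 KD and 3 (PSMB1, PSMB7 and PSMF1) after PD0332991. Of the genes past 1.5-fold in CDK4/6 KD, PSMD13 turned to 0.01 and NFE2L3 to -0.26. Total counts alone moved the median of all genes by 0.10 in CDK4/6 KD and gave -0.15 for the members, -0.12 for the core and -0.09 for the activators, with 61.9% of all 1.5-fold calls upward against 52.7%, and 1 pathway gene higher in scrambled siRNA against DMSO. Quantile normalization gave -0.16 for the members and -0.11 for the core in CDK4/6 KD, -0.18 for the core after PD0332991, and 1 pathway gene higher there. A pseudocount of 5 reads left 0 pathway genes higher in CDK4/6 KD. At a threshold of 20% lower or 25% higher, 19 members were lower and 1 higher in CDK4/6 KD against scrambled siRNA and likewise in PD0332991 against DMSO, and 18 higher and 1 lower in scrambled siRNA against DMSO. At 2-fold, 0 were lower in CDK4/6 KD, 1 was lower after PD0332991 and 0 were higher in scrambled siRNA. DESeq2 size factors, the read filters and the handling of repeated symbols moved no median or count of the members past these limits. The same alternatives for scrambled siRNA against DMSO and for the pathway genes were added after seeing the data. PSMA1, PSMA2 and PSMB5 changed sign in CDK4/6 KD under total counts and under quantile normalization, and PSMD10 under total counts, and PSMB10 did after PD0332991 under quantile normalization. No paired analysis was possible because each condition has 1 library. Depth limits PSMD5, PSMD6, PSMD10 and PSMB10 most, which had at most 365 reads in any library.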
